A study of Raphidocelis subcapitata with 72 samples.

Results

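A set of 31 genes of the green alga Raphidocelis subcapitata was examined that differed between cultures at 1 h and lay closer together at 4 h, where differences from neg-headed cultures were held within a band. At 1 h these transcripts were lower with magnetite nanoparticles (nFe3O4) and in cultures headed nZVI (nanoscale zero-valent iron) than in cultures headed neg. The members were chosen from 12181 genes by measured values. A gene entered when the mean of its 6 group means was from 5 to below 1000 CPM (depth-normalised counts on TMM-scaled library sizes). Its level, log2(group mean CPM + 1), had to be at least 1 lower at 1 h in both nFe3O4 and nZVI-headed than in neg-headed cultures. At 4 h both differences had to lie between -0.4 and 0.4. Of 7594 genes in that CPM range, 201 met the 1 h condition, and 31 of these also met the 4 h condition. A further 57 of the 201 were at least 1 lower in both conditions at 4 h as well, and 113 met neither 4 h condition.

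Poly(A) RNA of strain ATCC 22662 was sequenced from mid-log cultures in 6 groups. These were 100 mg/L nFe3O4 at 4 h, 100 mg/L nZVI at 4 h, no particles at 4 h, and the same conditions at 1 h, with 3 biological replicates each in the labels. Particles were the stated difference between conditions; medium, light and CO2 supply were shared. Whether each replicate had its own inoculum is not stated. The p-values set group differences against the spread among these libraries and may not extend to other cultures. Sub-samples of a replicate, marked L1 to L4, were read as lanes and summed. For nFe3O4 at 1 h, the 4 columns under replicate 2 repeat 1 lane of replicate 1 value for value. They were not used, so this group has 2 libraries and the study 17, with totals of 26322767 to 43364641 counts.

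The names neg and nZVI are exchanged between the authors' tables. Over 49 genes, 12 of 12 libraries headed neg or nZVI in the count table had their best match in the authors' transformed table under the other name, at the same hour and number, and 5 of 5 nFe3O4 libraries matched their own name. Groups are therefore called neg-headed and nZVI-headed after the count table. If the names of the transformed table hold, the group at the higher level at 1 h is nZVI, and the groups at the lower level are nFe3O4 and the particle-free control.

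Zero-valent iron oxidises in water and releases dissolved iron, while magnetite is a more stable mixed iron oxide. Iron is needed by algae for photosynthetic and respiratory electron transport, and an excess can promote oxidative damage. A transcript level reflects both synthesis and decay of the RNA, and RNA-seq of a culture measures the relative share of each transcript in the pool. Members are known here by locus identifier alone, so no function is given for any of them.

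At 1 h the differences that chose the members had a median of -1.28 for nFe3O4 and -1.52 for nZVI-headed, each against neg-headed, on the scale of log2(group mean CPM + 1). They ran from -3.52 to -1.01 for nFe3O4 and from -2.97 to -1.04 for nZVI-headed cultures. Both differences were -2 or lower in 4 members, among 39 such genes in the CPM range. In edgeR's quasi-likelihood fit, 30 of 31 members passed an adjusted p of 0.05 as lower with nFe3O4, where 13.6% of all tested genes did. For nZVI-headed cultures 31 of 31 did, where 20.2% of tested genes did. As higher, 0 members passed in either case, where 15.3% and 21.2% of tested genes did. These contrasts chose the members, so the counts are a description. In bulk RNA, fewer cells with a transcript and less of it per cell cannot be told apart. The 31 members passed the filter on low counts, and 11841 genes were tested in all.

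**Figure D1:**
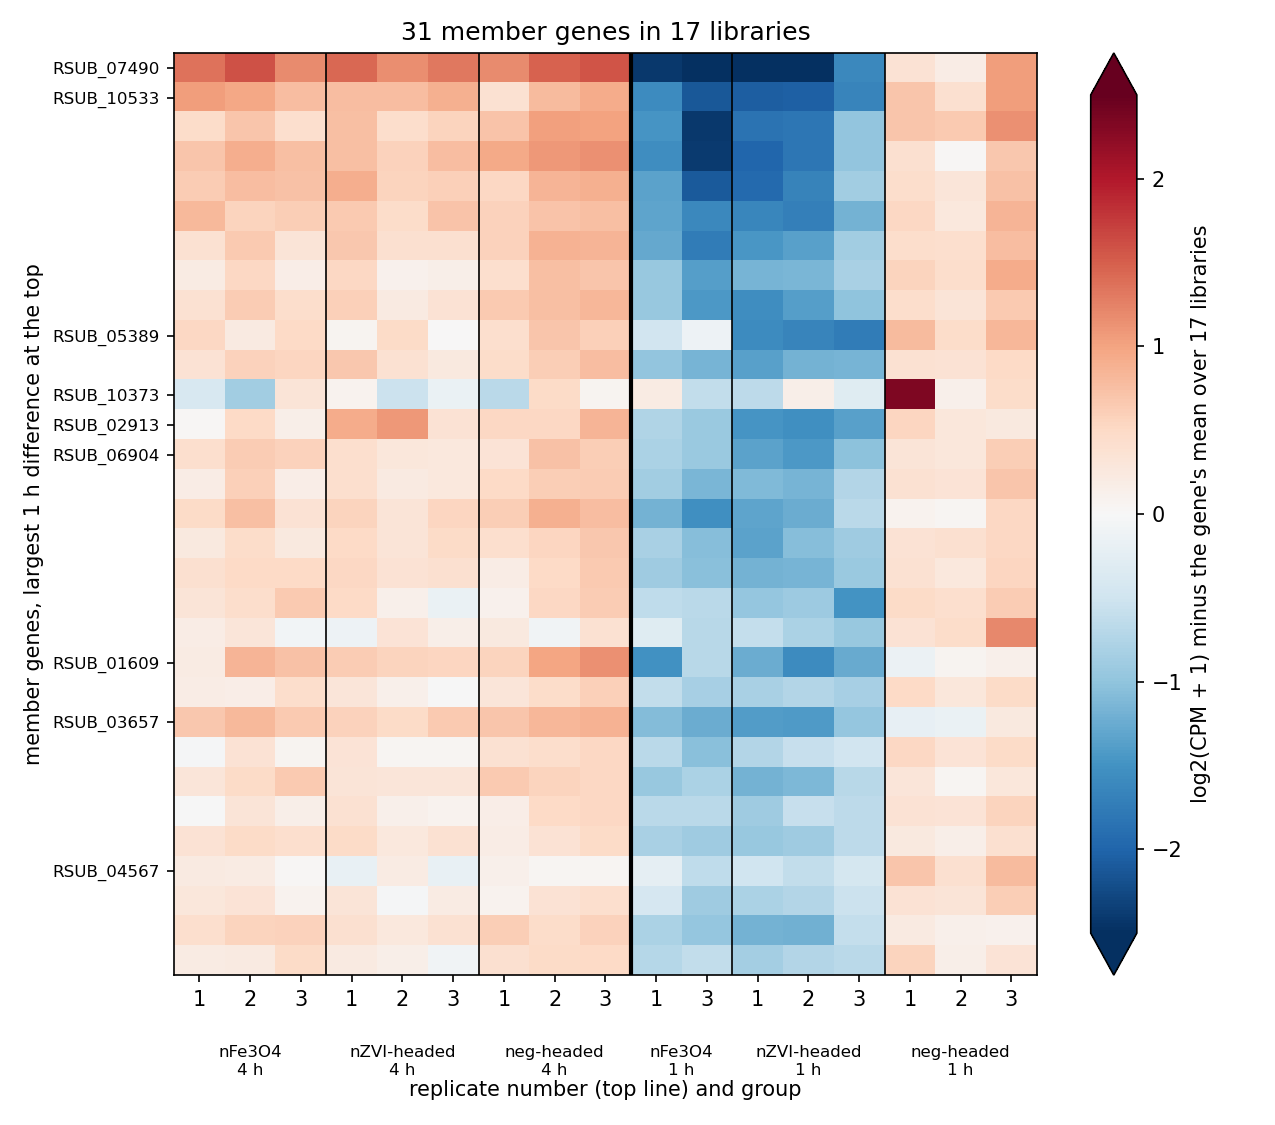
Heat map of the 31 members (rows, largest 1 h difference at the top) in 17 libraries (columns, grouped by hour and condition). Colour is log2(CPM + 1) minus the gene's mean over the libraries, with values beyond 2.5 drawn at the end colours; the 5 libraries of nFe3O4 and nZVI-headed cultures at 1 h form the low block, and RSUB_10373 departs from it.

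RSUB_07490 had the largest 1 h difference on the scale of log2(group mean CPM + 1), as the mean of both contrasts. At 4 h it stood at 511, 598 and 454 CPM with nFe3O4, at 539.5, 447 and 501 CPM in nZVI-headed cultures and at 455, 553 and 591 CPM in neg-headed cultures. At 1 h it stood at 36.7 and 13.7 CPM with nFe3O4, at 18.8, 28.6 and 64.4 CPM in nZVI-headed cultures and at 257, 226 and 414 CPM in neg-headed cultures. The 3 conditions overlapped at 4 h. At 1 h the neg-headed libraries lay above the 5 others and below each of the 9 libraries of 4 h. Its nFe3O4 libraries at 1 h differed from each other by more than a factor of 2, so its low level there is known less well than its level at 4 h.

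The second on the scale of log2(group mean CPM + 1) was RSUB_10533, a gene of low counts. The order depends on the scale. In the edgeR fit its 1 h log2 fold changes were -3.52 with nFe3O4 and -3.72 in nZVI-headed cultures, against -3.57 and -3.01 for RSUB_07490. At 4 h it stood at 12.7, 11.9 and 10.4 CPM with nFe3O4, at 10.4, 10.4 and 11.2 CPM in nZVI-headed cultures and at 7.71, 10.4 and 11.6 CPM in neg-headed cultures. At 1 h it stood at 1.25 and 0.527 CPM with nFe3O4, at 0.588, 0.620 and 1.11 CPM in nZVI-headed cultures and at 9.79, 7.81 and 12.7 CPM in neg-headed cultures. Its neg-headed libraries of 4 h and 1 h overlapped, while the low libraries held 22 to 46 counts each. Over the members, 6 had a count under 100 in at least 1 of the 5 low libraries. The median count of a member there was 1240.

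RSUB_06904 had the highest mean of the members, 925 CPM, near the upper limit of the rule; gene lengths are not in the files, so levels are not compared between genes. At 4 h it stood at 1135, 1324 and 1277 CPM with nFe3O4, at 1138, 1039 and 1022 CPM in nZVI-headed cultures and at 1082, 1421 and 1309 CPM in neg-headed cultures. At 1 h it stood at 493 and 450.5 CPM with nFe3O4, at 335, 313 and 421 CPM in nZVI-headed cultures and at 1064, 1045 and 1315 CPM in neg-headed cultures. The neg-headed libraries of both hours share one range with the particle-headed libraries of 4 h, and the 5 others lie below it.

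How the 1 h gap closed was only partly set by the rule. The rule fixes that the change from 1 h to 4 h differed between the conditions, but not whether neg-headed levels fell or the others rose. Where neg-headed levels changed little, the rule makes the other levels rise, so the counts of rises in those cultures are a description. In nFe3O4 cultures 29 of 31 members rose at 4 h against 1 h by edgeR's quasi-likelihood test, with 0 falling (0 also at an unadjusted p below 0.05 and 0 by DESeq2), while 5.33% of all tested genes rose and 7.19% fell. In nZVI-headed cultures 30 of 31 rose and 0 fell (0 at an unadjusted p below 0.05, 0 by DESeq2), where 8.28% of tested genes rose and 9.54% fell. In neg-headed cultures 4 of 31 rose, where 8.52% of tested genes rose, and 1 fell, where 8.61% fell. Thus 24 of the 31 members rose in both nFe3O4 and nZVI-headed cultures without passing the test in neg-headed cultures. The neg-headed count of 5 was 2 to 4 when single libraries of this comparison were left out. It was 3 without replicate 1 and 2 without replicate 3 of 4 h, and 2, 3 and 3 without replicates 1, 2 and 3 of 1 h. It was 8, of which 7 rose, in a fit on these groups alone.

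The median change at 4 h against 1 h, as edgeR's log2 fold change, was 1.40 with nFe3O4, 1.53 in nZVI-headed and 0.11 in neg-headed cultures. Over all tested genes the medians were 0.02, -0.01 and 0.01. On the scale of log2(group mean CPM + 1), 22 members were higher at 4 h by at least 1 with nFe3O4 and 23 in nZVI-headed cultures. Among the 7594 genes of the CPM range these numbers were 114 and 116. In neg-headed cultures 0 members were higher by at least 1, against 130 genes of the range, and 23 of 31 changed by no more than 0.4, as did 5591 of the 7594 genes, which is close to the same share. The neg-headed change was the smallest in size of the 3 conditions in 29 members, which the rule favours, so this count is a description. By the share within 0.4, neg-headed levels changed over time about as little as those of other genes in the range. The name "high in neg-headed cultures at 1 h" therefore holds relative to the other cultures of that hour rather than over time.

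**Figure D2:**
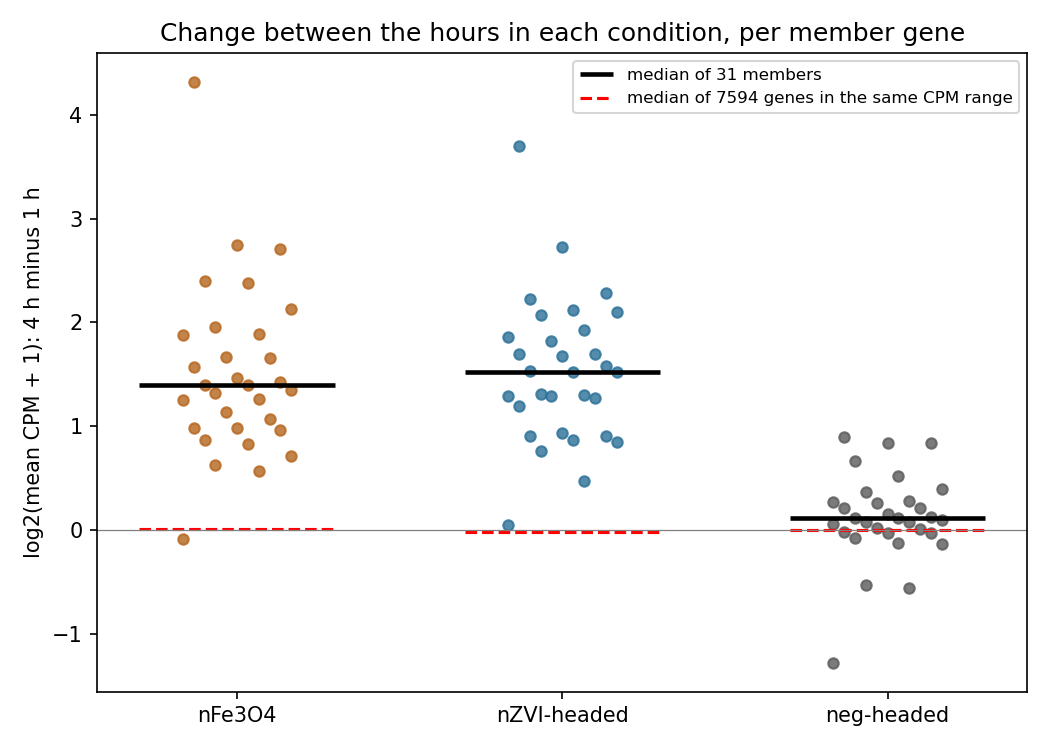
Change of each member (point) at 4 h minus 1 h in log2(group mean CPM + 1), by condition, with the median of the 31 members (black line) and of 7594 genes in the same CPM range (red dashed line). Member medians are 1.39 with nFe3O4, 1.53 in nZVI-headed and 0.11 in neg-headed cultures.

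The difference between the hours in the effect of a condition, which the rule selects for, passed as higher at 4 h in 26 members with nFe3O4 (1.19% of tested genes higher, 0.777% lower). In nZVI-headed cultures it passed as higher in 30 members (4.59% higher, 4.69% lower). With 4 h differences held near 0, a large 1 h difference brings a large rise over time, so the rises of the genes named for their 1 h difference, and their p-values, are a description. RSUB_07490 was higher at 4 h than at 1 h by 4.37 in log2 with nFe3O4 (SE 0.51, adjusted p = 5.7e-05) and by 3.74 in nZVI-headed cultures (SE 0.42, adjusted p = 1.95e-05). In neg-headed cultures its libraries of 4 h also lay above those of 1 h, at 0.84 (SE 0.38, adjusted p = 0.143), which did not pass. RSUB_10533 rose by 3.72 with nFe3O4 (SE 0.35, adjusted p = 1.05e-05) and by 3.80 in nZVI-headed cultures (SE 0.30, adjusted p = 1.22e-06), and its neg-headed value was -0.03 (SE 0.25, adjusted p = 0.954). The p-values come from the edgeR fit and are adjusted over all tested genes. Libraries of the hours did not overlap, with 4 h above 1 h, in 30 members with nFe3O4 (18.2% of tested genes), in 30 in nZVI-headed cultures (15.9%) and in 8 in neg-headed cultures (20.5%). The rule favours this order with nFe3O4 and in nZVI-headed cultures, so those counts are a description.

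The 4 members that rose in neg-headed cultures also rose in the other conditions. RSUB_03657 stood in neg-headed cultures at 1254, 1384 and 1417 CPM at 4 h and at 674, 688 and 914 CPM at 1 h, higher at 4 h by 0.83 in log2 (SE 0.13, adjusted p = 4.91e-04, edgeR). Its levels in the other cultures at 4 h were 1236, 1360.1 and 1224 CPM with nFe3O4 and 1162, 1083 and 1228 CPM in nZVI-headed cultures. At 1 h they were 365 and 328 CPM with nFe3O4 and 296, 291 and 394 CPM in nZVI-headed cultures. This gene therefore rose in the 3 conditions, from different 1 h levels, with log2 fold changes of 1.88 with nFe3O4 and 1.83 in nZVI-headed cultures.

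RSUB_01609 stood in neg-headed cultures at 7.52, 10.4 and 11.8 CPM at 4 h and at 4.22, 5.08 and 5.35 CPM at 1 h. It was higher at 4 h by 1.02 in log2 (SE 0.27, adjusted p = 0.0183, edgeR). The adjusted p was 0.0688 without neg-headed 4 h replicate 3 and 0.0707 without neg-headed 1 h replicate 1. RSUB_02203 and RSUB_00493, named after their values were seen, complete the 4 with log2 fold changes of 0.52 (adjusted p = 0.0483) and 0.40 (adjusted p = 0.0473, edgeR), close to the threshold.

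RSUB_04567 was the member that fell in neg-headed cultures. In neg-headed cultures it stood at 24.0, 22.7 and 22.9 CPM at 4 h and at 36.1, 29.4 and 38.7 CPM at 1 h, with no overlap, and the log2 difference was -0.58 (SE 0.14, adjusted p = 0.01, edgeR). The rule used the 1 h libraries, so this fall and its p-value are a description. Without neg-headed 1 h replicate 3 the adjusted p was 0.0522 by edgeR, and the gene was no longer a member. It also left the list without nFe3O4 1 h replicate 3. It rose by 0.60 with nFe3O4 (adjusted p = 0.0211) and by 0.49 in nZVI-headed cultures (adjusted p = 0.0226, edgeR), so for this gene the gap closed from both sides. At 4 h its means were 24.7 CPM ± 1.91 (SD, n = 3) with nFe3O4, 21.3 CPM ± 3.62 (SD, n = 3) in nZVI-headed and 23.2 CPM ± 0.699 (SD, n = 3) in neg-headed cultures.

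**Figure D3:**
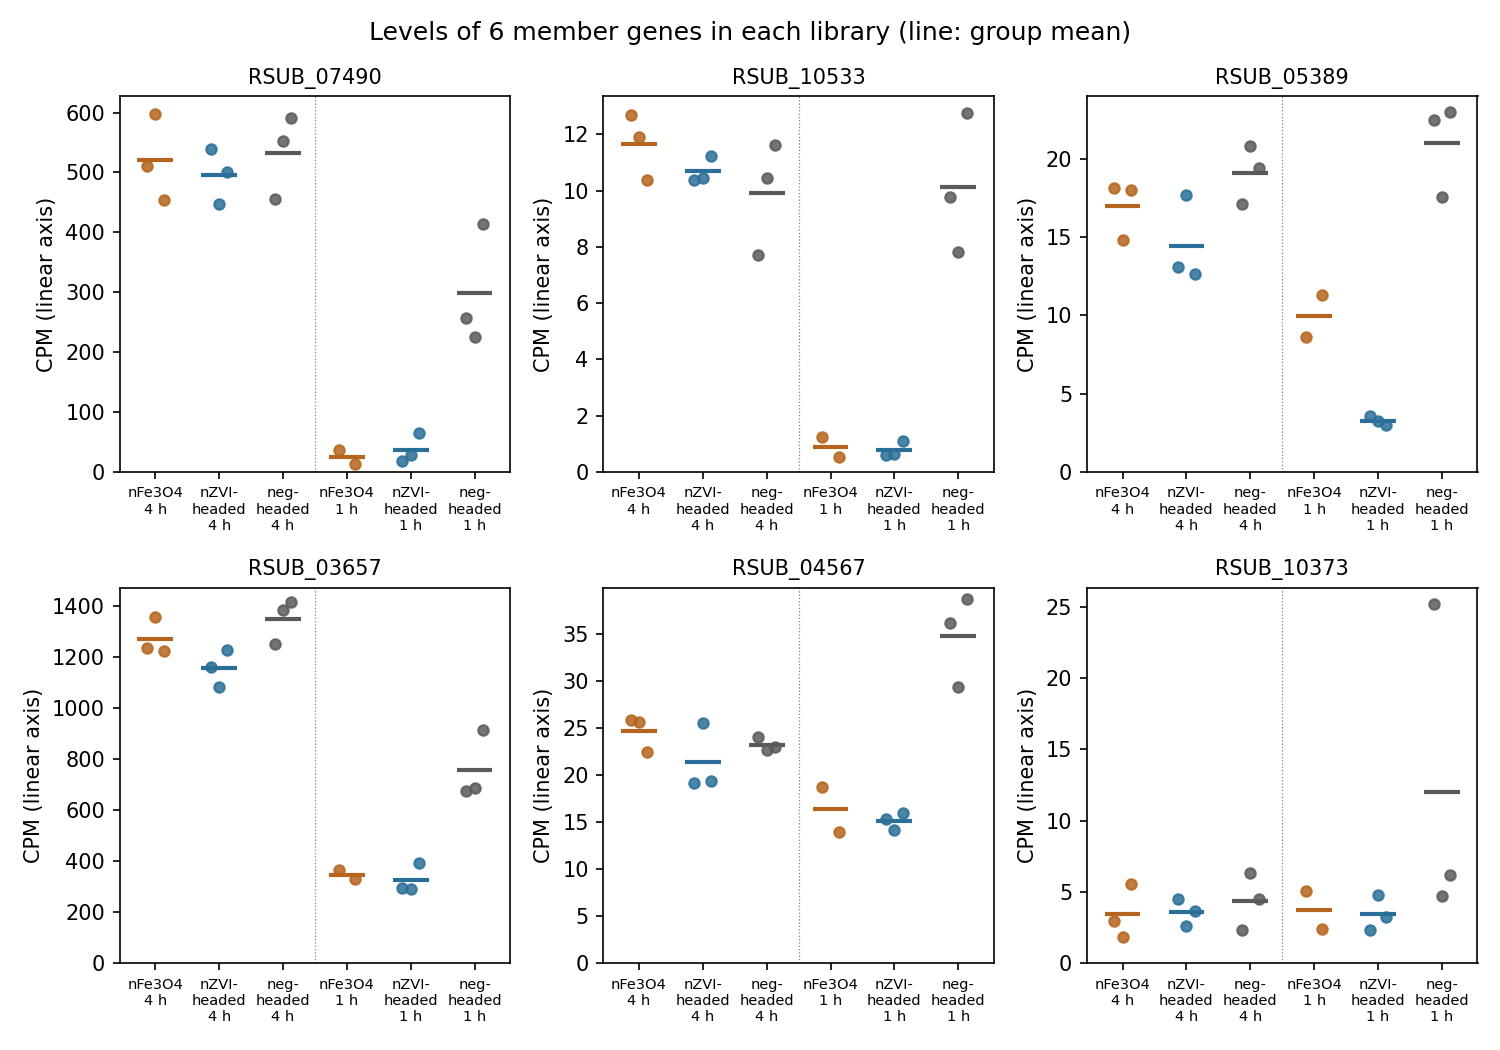
CPM of 6 members in every library (points) with group means (lines), on linear axes from 0, for nFe3O4, nZVI-headed and neg-headed cultures at 4 h (left) and 1 h (right). RSUB_07490 and RSUB_10533 are low in the 5 nFe3O4 and nZVI-headed libraries of 1 h, RSUB_05389 differs between these groups, RSUB_03657 rises in neg-headed cultures, RSUB_04567 falls there, and RSUB_10373 is high in 1 neg-headed library.

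RSUB_10373 met the rule with 1 library far above the rest and a mean of 5.09 CPM, close to the lower limit of 5. It is singled out after its values were seen. It stood at 1 h at 5.03 and 2.396 CPM with nFe3O4, at 2.30, 4.76 and 3.24 CPM in nZVI-headed cultures and at 25.2, 4.74 and 6.15 CPM in neg-headed cultures. Neg-headed 1 h replicate 1 lies far above every other library, and without it the gene is no longer a member. The gene also left the list without any 1 of 5 other libraries, which were nFe3O4 4 h replicate 3, neg-headed 4 h replicates 1 and 2, nFe3O4 1 h replicate 1 and nZVI-headed 1 h replicate 2. In the edgeR fit its 1 h log2 fold change was -1.69 with nFe3O4 (SE 0.67, adjusted p = 0.0686), so it is the member that missed the threshold there. It showed no rise past the threshold in any condition, with log2 fold changes at 4 h against 1 h of -0.10 with nFe3O4 and 0.07 in nZVI-headed cultures. In each of the other 30 members the 5 low libraries of 1 h lay below the 12 other libraries. That order held in 404 of the 11841 tested genes, or 3.41%; the rule used these libraries, so the count is a description.

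The groups at the lower level were then compared with each other at 1 h, a contrast without a threshold in the rule. The rule did require both groups to be low in these same libraries, so the counts and p-values of this contrast are a description. RSUB_05389 was the 1 member that differed. This gene met the rule narrowly, with a 1 h difference of -1.01 for nFe3O4 on the scale of the rule. It left the list in 8 of the 17 runs with a single library left out. It stood at 3.55, 3.27 and 2.99 CPM in nZVI-headed cultures, at 8.61 and 11.3 CPM with nFe3O4 and at 22.4, 17.5 and 23.0 CPM in neg-headed cultures, so the 3 conditions were separate at this hour. At 4 h the groups lay closer together, with means of 16.98 CPM ± 1.89 (SD, n = 3) with nFe3O4, 14.4 CPM ± 2.79 (SD, n = 3) in nZVI-headed and 19.1 CPM ± 1.88 (SD, n = 3) in neg-headed cultures. Its log2 fold change in nZVI-headed against nFe3O4 cultures at 1 h was -1.60 (SE 0.18, adjusted p = 0.00109, edgeR). In a fit on these 5 libraries alone the adjusted p was 0.156.

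By edgeR, then, 1 of 31 members was lower in nZVI-headed than in nFe3O4 cultures at 1 h, where 1.87% of tested genes were, and 0 were higher, where 1.21% were. At an unadjusted p below 0.05 the counts were 4 lower and 0 higher, and DESeq2 called 2 lower and 0 higher. The median log2 fold change was -0.09 in the members and 0.02 over all tested genes. A lower mean in nZVI-headed than in nFe3O4 cultures was found in 21 of 31 members and was not counted in other genes. With 3 and 2 libraries, a p above the threshold does not show that these groups were alike. For RSUB_07490 the log2 fold change was 0.56 with a standard error of 0.43, and for RSUB_10533 it was -0.20 with a standard error of 0.36.

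At 4 h the rule held the members to within 0.4 of the neg-headed level, and within that band most lay slightly below it. The neg-headed mean was the highest of the 3 conditions in 25 of 31 members, an order that was not counted in other genes. Median differences on the log2(group mean CPM + 1) scale were -0.15 for nFe3O4 and -0.22 for nZVI-headed cultures. In the CPM range they were 0.02 and 0.003. The edgeR fit called 0 members with nFe3O4, where 10.6% of tested genes were lower, with 2 lower at an unadjusted p below 0.05. It called 1 member as lower in nZVI-headed cultures, where 9.39% of tested genes were, with 7 lower at an unadjusted p below 0.05. The member called was RSUB_05141, named after its values were seen, at -0.36 (SE 0.11, adjusted p = 0.0327). Low counts of calls follow from the rule here.

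Values near the thresholds show how fine the selection was. RSUB_02913 lay just inside, with a 4 h difference of -0.40 for nFe3O4. Its CPM at 4 h were 14.1, 19.8 and 15.5 with nFe3O4, 27.4, 30.4 and 18.1 in nZVI-headed and 20.3, 20.2 and 25.8 in neg-headed cultures. RSUB_09464 lay just outside, with a 1 h difference of -0.99 for nFe3O4. Its means at 1 h were 4.76 CPM ± 1.34 (SD, n = 2) with nFe3O4, 4.10 CPM ± 0.619 (SD, n = 3) in nZVI-headed and 10.4 CPM ± 2.09 (SD, n = 3) in neg-headed cultures.

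Members varied together between libraries of a group. In neg-headed cultures at 1 h, replicate 3 was the highest of the 3 libraries in 24 of 31 members and replicate 2 in 0, whereas over the 7594 genes of the CPM range replicate 3 was highest in 34.7% and replicate 2 in 31.1%. In nZVI-headed cultures at 1 h, replicate 3 was the highest in 24 members (42% of the genes in range). With nFe3O4 at 1 h, replicate 1 was above replicate 3 in 26 members (48.1% of the genes in range). At 4 h, neg-headed replicate 3 was the highest in 21 members, nZVI-headed replicate 1 in 23 and nFe3O4 replicate 2 in 21, where 23%, 35.8% and 36.3% of the genes in range had these libraries highest. In each group of 1 h, the library with the largest total had the lowest median member level. These were nFe3O4 replicate 3 with 38347711 counts, nZVI-headed replicate 1 with 34831850 and neg-headed replicate 2 with 33161410. At 4 h the same held for nFe3O4 and neg-headed cultures and not for nZVI-headed cultures. The part of depth in this order was not tested.

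**Figure D4:**
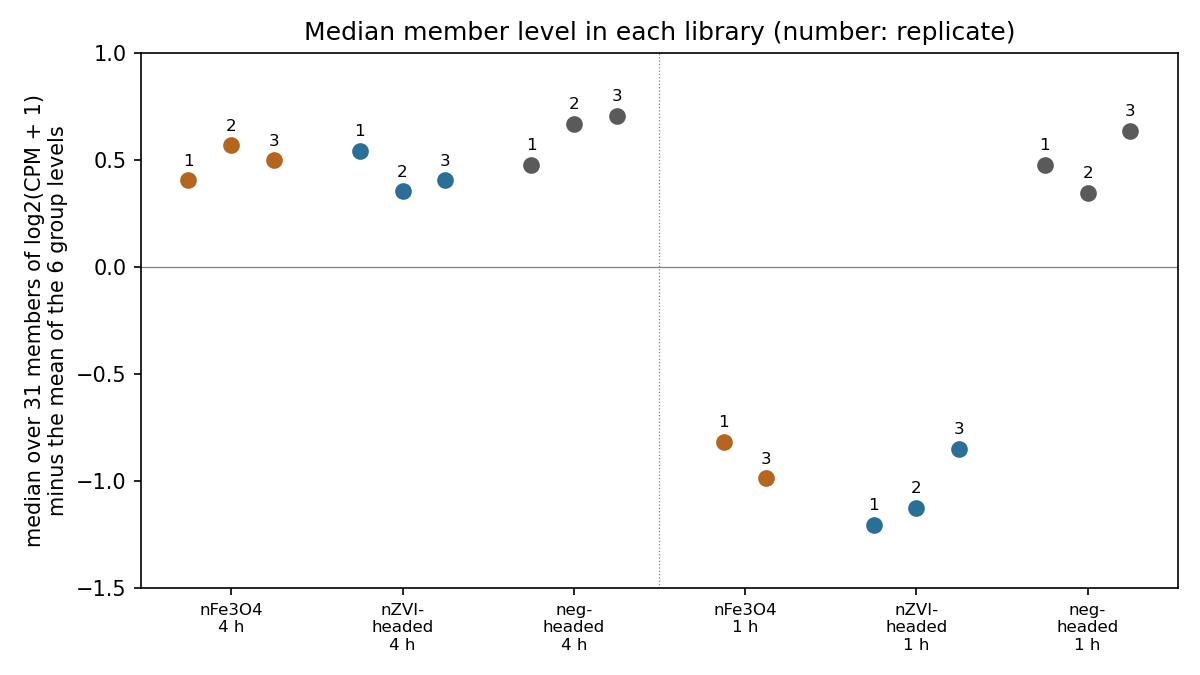
Median over the 31 members of log2(CPM + 1) minus the mean of the gene's 6 group levels, for each library (point, with its replicate number), in nFe3O4, nZVI-headed and neg-headed cultures at 4 h (left) and 1 h (right). The 5 nFe3O4 and nZVI-headed libraries of 1 h lie between -1.20 and -0.82, and the 12 others between 0.35 and 0.71.

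The median member level per library separated the same 5 libraries. It was -0.82 and -0.99 with nFe3O4 at 1 h, -1.20, -1.12 and -0.85 in nZVI-headed cultures and 0.48, 0.35 and 0.64 in neg-headed cultures, as log2(CPM + 1) minus the mean of the 6 group levels. At 4 h it lay between 0.35 and 0.71 in the 9 libraries. The spread within groups was wider at 1 h than at 4 h. The median coefficient of variation of the members at 1 h was 18.4% with nFe3O4, 17.5% in nZVI-headed and 13.9% in neg-headed cultures, beside 7.38%, 12% and 8.91% over the genes in range. At 4 h it was 10.7%, 11.2% and 10.9%, beside 11.5%, 10.5% and 10%. The 4 members with both 1 h differences at -2 or lower (RSUB_07490, RSUB_10533, RSUB_04881 and RSUB_02695) had higher median coefficients of variation at 1 h as a set, 51.4% with nFe3O4, 37.2% in nZVI-headed and 23.5% in neg-headed cultures, against 13.4%, 15.9% and 12.1% in the 27 other members. Single members did not follow this order throughout: RSUB_10373 had the highest value in neg-headed cultures, 95%.

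Set beside the 57 genes that were lower in both conditions at both hours, the members more often rose over time with nFe3O4 and in nZVI-headed cultures. Of the 57, 2 rose and 1 fell at 4 h against 1 h with nFe3O4 by edgeR, where 5.33% and 7.19% of tested genes did. In nZVI-headed cultures 17 rose and 0 fell, where 8.28% and 9.54% of tested genes did. The median log2 fold changes were 0.42 and 0.69. In neg-headed cultures 0 of the 57 rose and 4 fell, where 8.52% and 8.61% of tested genes did, with a median of -0.23. The 31 members had 4 that rose there, 1 that fell and a median of 0.11. The few neg-headed calls are not read as a difference between the lists. The 4 h thresholds set part of this contrast, and the difference between the lists was not tested.

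A library outside the rule was available for 5 members in the authors' transformed table of 50 genes, whose values are log2 and centred on each gene. There, nFe3O4 1 h replicate 2 is a library of its own rather than a copy: across 49 genes, which are not independent, it correlated at 0.911 with replicate 1 and at 0.95 with replicate 3. Its correlations with the 3 libraries of 1 h that are nZVI-headed in the count table were 0.948, 0.927 and 0.884, so these values do not single out its group. For RSUB_07490 this library had -2.13, between -3.25 and -1.49 as the other libraries of the low groups, whereas the libraries that are neg-headed in the count table had 0.24 to 1.11. It had -1.39 for RSUB_04881, -1.43 for RSUB_08081, -1.20 for RSUB_01031 and -1.16 for RSUB_09482. In 5 of 5 members it lay below all 3 neg-headed libraries of 1 h, as it did in 28 of the 50 genes of that table. This is 1 library, so no test was made, and by the authors' title for it the table holds the 50 genes of highest variance across samples. The held-out library was among those samples, so the choice of genes was not independent of it.

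**Figure D5:**
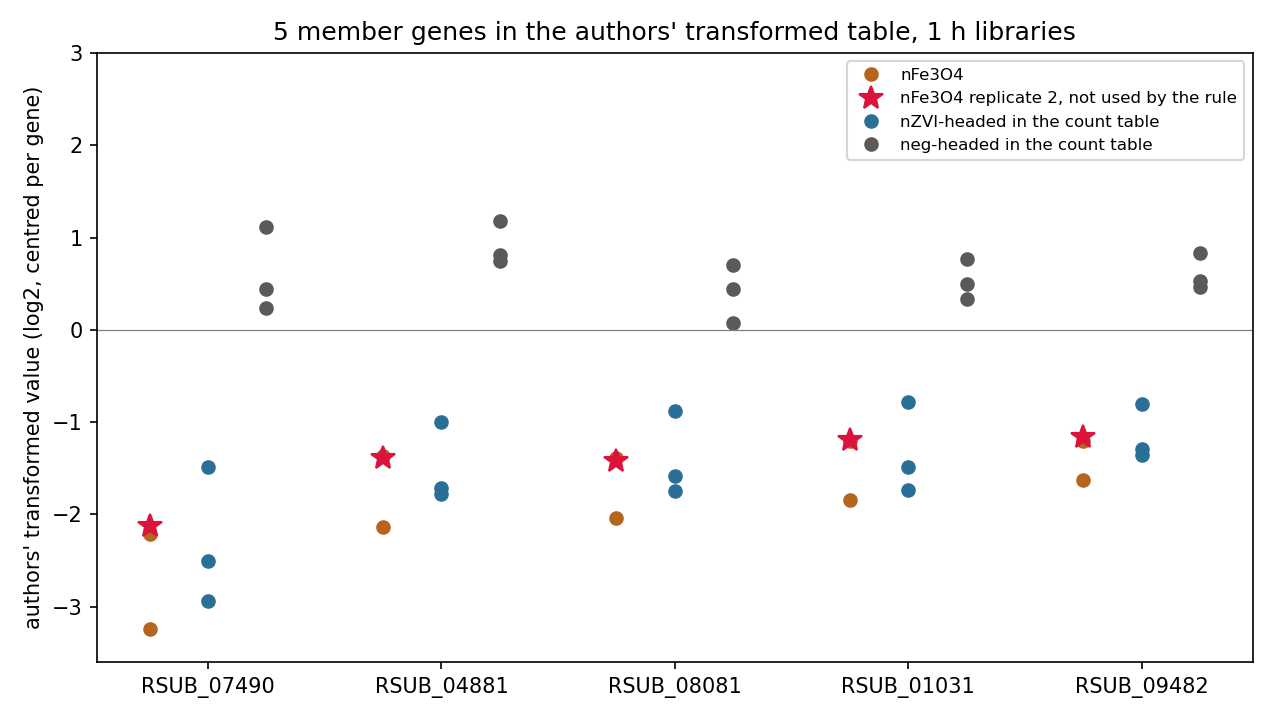
Values of 5 members in the authors' transformed table (log2, centred per gene) for 1 h libraries, named by their match in the count table; the star is nFe3O4 replicate 2, which the rule did not use. The star lies between -2.13 and -1.16, within or near the nFe3O4 and nZVI-headed points and below the neg-headed points, which lie between 0.07 and 1.18.

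The authors' deposited comparison tables list genes under their own names for the groups. For 1 h, the authors' deposited table that sets nZVI over nFe3O4 listed 30 of 31 members, 30 with a positive log2 fold change and a median of 1.35, while it listed 53.1% of the genes in the count table. The authors' deposited table that sets nZVI over control at that hour listed 30, all positive, with a median of 1.71 (59% of genes listed). The authors' deposited table that sets nFe3O4 over control at that hour listed 13 members, 9 positive and 4 negative (36.7% of genes listed). With neg and nZVI exchanged, these directions match those found here from the counts. For 4 h, the authors' deposited table that sets nZVI over control listed 20 members, 20 positive, with a median of 0.32 (45.0% of genes listed). The authors' deposited table that sets nZVI over nFe3O4 at 4 h listed 14, 14 positive, with a median of 0.29 (46.4% of genes listed). The authors' deposited table that sets nFe3O4 over control at 4 h listed 8, 7 positive and RSUB_02913 negative at -0.65 (12.7% of genes listed). The members listed for nZVI at 4 h had smaller median differences than at 1 h. Of the 31 members, 64.5% were listed for nZVI over control, 25.8% for nFe3O4 over control and 45.2% for nZVI over nFe3O4. The last share is close to the 46.4% of all genes. Being listed does not by itself place a member outside the band of 0.4 used here. Over all conditions, the authors' deposited table of 4 h against 1 h listed 28 members, 28 positive, with a median of 0.94 (43.1% of genes listed). These tables rest on the same cultures and give no separate support. For nZVI and control at 1 h, the standard errors of the listed members were below those of the edgeR fit. They were 0.187 against 0.404 for RSUB_07490 and 0.059 against 0.127 for RSUB_06904. Whether lanes were counted as replicates there was not tested, so the numbers of members listed are not comparable with the numbers called by edgeR.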

How the data were processed

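The submitters' processing notes name DESeq, DESeq2, HISAT2, bedtools 2.27.1, SAMtools, Trimmomatic and bcl2fastq, without roles. For the genome build, annotation and read counting, settings were not given in the sources used here. Whole read counts were deposited by the authors per gene, in 72 lane columns and without normalization. They deposited a log2-scale table of 50 genes, named as regularized log values. Per the file headers, 7 deposited tables hold DESeq2 output: a mean normalized count and a standard error (other values), a log2 fold change, a p-value, an adjusted p-value, and a score that is the Wald statistic.

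Lanes were summed, and the copied library was left out (68 lane columns, 17 libraries). CPM used TMM scaling. Tests used edgeR 4.0.16 (limma 3.58.1, R 4.3.3), quasi-likelihood, over 6 group means, with the default low-count filter by group (340 genes removed, 11841 tested) and Benjamini-Hochberg adjustment over all tested genes at 0.05. The standard error was taken from the test statistic. The fit and the rule were tested on simulated data. DESeq2 1.42.0, RLE scaling, no filter, a replicate term, fits on the groups compared, lane 1 and leaving out each library were tried.

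The members and lists were chosen with earlier results of these data known. Named genes are the 2 members with the largest mean 1 h difference, up to 2 rising and 2 falling per comparison among those past the threshold without overlap, the member with the highest CPM, and the genes next to the thresholds. Others are said to be named after their values were seen, as are the members in the transformed table. PCR reads without molecular identifiers are not independent molecules.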

Additional observations from a re-analysis of the deposited data

Results flagged for a closer look

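The effect of nFe3O4 against neg-headed cultures differed between 4 h and 1 h in 26 of 31 members by edgeR's test of that difference, where 1.19% of tested genes had a higher value at 4 h. For nZVI-headed cultures the difference passed in 30 of 31 members, where 4.59% of tested genes had a higher value at 4 h. The rule selects for this difference, so both counts are a description. The members that did not pass were RSUB_10373 in both cases and, for nFe3O4, RSUB_05389 (adjusted p = 0.0607), RSUB_02913 (0.116), RSUB_00761 (0.0784) and RSUB_01609 (0.207, edgeR).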

How the results depend on the processing

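Counts of members called at 4 h against 1 h with nFe3O4 and in nZVI-headed cultures stayed within 1.5 times the reported 29 and 30 under every alternative run (DESeq2, RLE, no filter, replicate block, groups alone, lane 1, single libraries left out): 28 to 29 and 29 to 30 with single libraries left out, and 26 and 29 in fits on the groups alone. The neg-headed count of 5 was 8 on those groups alone and 2 to 4 with single libraries left out. The nZVI-headed against nFe3O4 count of 1 at 1 h was 2 by DESeq2, 0 on those groups alone, and 1 with each library left out in turn. With the replicate block the counts were 29, 30, 4 and 1. Same-numbered libraries did not deviate together throughout, with r across genes from -0.5 to 0.653, and not every library matched its own number best. At 4 h against 1 h their r was 0.476 and 0.653 with nFe3O4 and 0.301, -0.0242 and 0.46 in nZVI-headed cultures. In neg-headed cultures it was 0.106, 0.0419 and -0.00653. With 2 nFe3O4 libraries at 1 h, r values that involve them mirror each other by construction. The number was not read as a pairing, but a pairing is not excluded. The rule gave 24 to 41 genes with single libraries left out, 24 to 31 of them shared with the 31, and 13 members were kept in each of these 17 runs. It gave 31 genes with RLE scaling (28 shared), 27 without scaling (19 shared), 33 with a pseudocount of 0.5 (30 shared), 23 with a pseudocount of 5 (20 shared), 27 with lane 1 (22 shared), 35 with the copied library kept (30 shared) and 23 with a minimum mean of 20 CPM (23 shared). The cause of these shifts was not tested. Precision is limited by 2 or 3 libraries a group.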
